A study of Homo sapiens with 2 samples.

Results

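The expression of 10 genes of the NF-kB system was measured after knockdown of SET7/9 in gastric cancer (GC) cells. They were 3 subunits (NFKB1, NFKB2 and RELB) and 3 inhibitors of the IkB family (NFKBIA, NFKBIE and NFKBIZ). The other 4, TNFAIP3, TNIP1, BIRC3 and TNFAIP2, are grouped here as feedback regulators. The 10 genes were taken by name from the 25940 gene names on the array, and each was represented by 1 probe of 34127, so that 2 probes of a member could not be compared. They had been chosen by their knockdown ratios and control levels on these same arrays, and all values below are therefore a description to which no test was applied. MKN74 and MKN45, both established GC cell lines, received SET7/9 siRNA or a negative control siRNA at 50 nM by electroporation and were harvested 48 hrs later. In each cell line RNA of SET7/9 siRNA cells was labelled with Cy5 and RNA of control siRNA cells with Cy3 and both were hybridised to 1 two-colour array. The dyes were not swapped, there was 1 array per cell line, and the sources used here do not say which of the study's SET7/9 siRNAs the arrays held.

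NF-kB is a family of dimeric transcription factors. In resting cells the dimers are held in the cytoplasm by IkB proteins, and signals from cytokine receptors activate kinases that mark IkB for degradation and set the dimers free to bind kB sites in the DNA. Several of the genes that NF-kB then switches on encode its own subunits, IkB proteins and enzymes that shut the signal down, so that the pathway limits itself. SET7/9, the product of SETD7, is a lysine methyltransferase that acts on histone H3 and on other proteins.

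NF-kB binds DNA at kB sites, and the start regions of the members are therefore shown first. RefSeq start windows (GRCh38.p14), each from 250 bases before to 50 bases after a transcription start, were listed for 8 of the 10 genes and not for RELB and NFKBIE. The windows were searched on both strands for the kB consensus of 3 guanines, a purine, any 2 bases, 2 pyrimidines and 2 cytosines. At least 1 match was present in 7 of the 8 genes, and in 13.3% of the 27305 genes in the table. By window, 9 of the 13 windows of the members held a match, against 11.3% of all 35116 windows. A match is a description of the letters in the window and not a measured binding site.

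The stretches that hold the matches follow, 5′ to 3′ on the strand of the gene, with the kB matches in capitals (a match on the opposite strand is written as its complement on the strand of the gene). They lie at chr14:35404750-35404869 (minus strand) for NFKBIA, chr6:137867159-137867258 (plus strand) for TNFAIP3, chr5:151081035-151081134 (minus strand) for TNIP1, chr11:102317264-102317364 (plus strand) for BIRC3, chr4:102501259-102501358 (plus strand) for NFKB1, chr3:101827750-101827809 (plus strand) for NFKBIZ and chr10:102394468-102394496 (plus strand) for NFKB2.
NFKBIA: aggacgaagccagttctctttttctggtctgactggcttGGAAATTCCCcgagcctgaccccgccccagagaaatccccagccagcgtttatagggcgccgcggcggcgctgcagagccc
TNFAIP3: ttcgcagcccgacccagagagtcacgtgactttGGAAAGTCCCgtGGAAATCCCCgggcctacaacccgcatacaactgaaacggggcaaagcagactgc
TNIP1: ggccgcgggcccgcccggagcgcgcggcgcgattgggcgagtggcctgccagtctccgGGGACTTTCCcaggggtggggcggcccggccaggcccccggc
BIRC3: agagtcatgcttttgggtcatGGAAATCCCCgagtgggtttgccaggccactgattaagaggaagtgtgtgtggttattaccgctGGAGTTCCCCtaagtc
NFKB1: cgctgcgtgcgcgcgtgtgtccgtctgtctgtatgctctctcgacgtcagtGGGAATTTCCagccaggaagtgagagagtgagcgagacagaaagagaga
NFKBIZ: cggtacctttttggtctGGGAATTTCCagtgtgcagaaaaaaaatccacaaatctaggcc
NFKB2: catGGGAATTCCCCcctccggggggccga
In TNFAIP3 the 2 matches began 67 and 55 bases upstream of the start. The match began 81 bases upstream in NFKBIA, 42 in TNIP1 and 49 in NFKB1. BIRC3 held matches 199 and 135 bases upstream. The NFKB2 stretch belongs to the second of its 3 listed starts and holds 2 overlapping matches, 107 and 106 bases upstream, and a further match lay 78 bases upstream of the same start.

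TNFAIP2 was the only one of the 8 genes with no match in its window. The last 100 bases before its start, at chr14:103123361-103123460 (plus strand), are shown for contrast and hold no capitals.
TNFAIP2: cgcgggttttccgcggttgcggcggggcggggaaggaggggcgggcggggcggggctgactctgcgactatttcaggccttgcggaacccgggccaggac
GGGCGG, the core of a GC box, was searched in the same way, on both strands and with any overlap with a kB match allowed, and was present in 7 of the 8 genes against 48.3% of all genes in the table. TATAAA was present in 2 of the 8 against 14.0% of all genes.

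**Figure D1:**
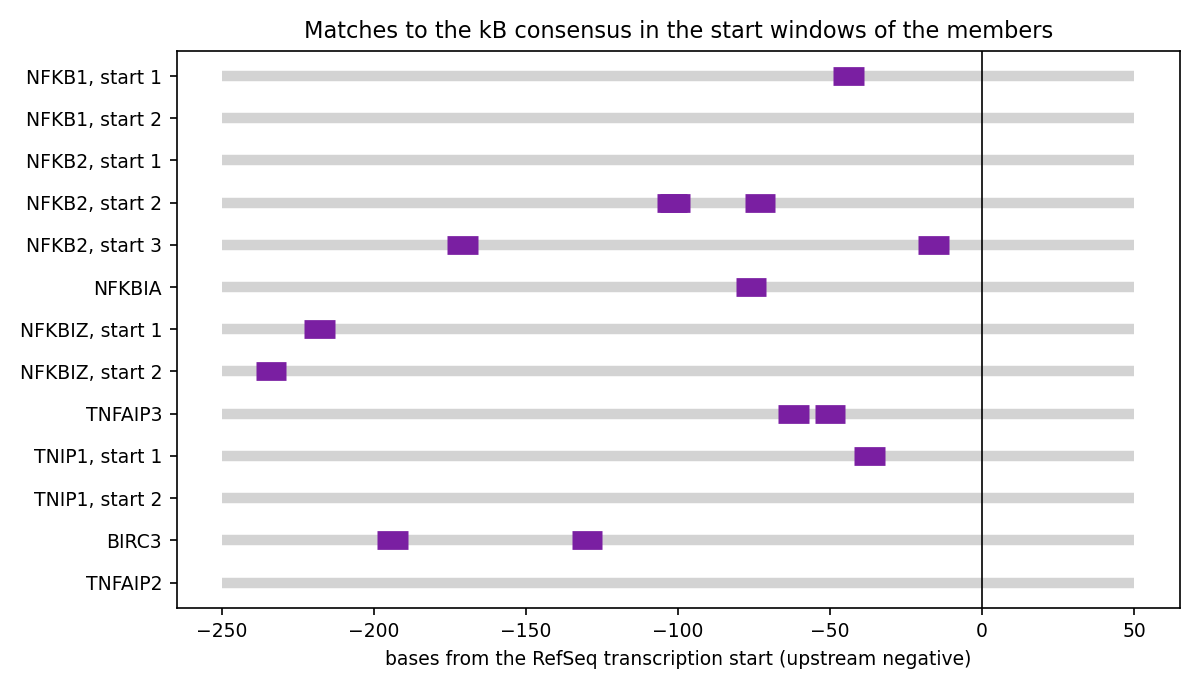
Positions of matches to the kB consensus (purple) in the 13 RefSeq start windows of the 8 members listed, with the distance in bases from the transcription start on the x axis and 1 grey bar for each window. Every match lies upstream of its start, and TNFAIP2 has none.

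All values below are from probes of 60 bases, whose GRCh37 positions are those of the array's annotation. Their placement in exons and UTRs was not analysed here. The knockdown value is the log2 ratio of SET7/9 siRNA over control siRNA, given with the error (1 SD) that the scanner software's error model attached to it. A gene was called higher or lower at 1.5-fold, which is 0.58 on the log2 scale. Both arrays lay on 1 slide. Over probes printed several times, the pooled SD between spots was 0.0870 in MKN74 and 0.0987 in MKN45 on the log2 scale, which holds no variation between cultures. Of the probes, 18582 in MKN74 and 20281 in MKN45 were well above background in both channels, and their median log2 ratio was -0.0066 and -0.0011. The SETD7 probe that fell gave -2.03 ± 0.28 in MKN74 and -1.95 ± 0.28 in MKN45, and a second SETD7 probe gave 0.24 ± 0.22 and -0.23 ± 0.21. All 7 epithelial markers were measured in both channels in both cell lines, and of 6 fibroblast markers 0 were so in MKN74 and 1, LUM, in MKN45. Of 6 leukocyte markers, CD14 was so in MKN74, and CD14 and PTPRC in MKN45. Of 5 endothelial markers CDH5 was so in both lines. The signals of these 4 genes lay between 17.8 and 41.7 units.

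The members leaned upward after knockdown in both cell lines, and few of them passed 1.5-fold. In MKN74 9 of the 10 members were measured, all in both channels. BIRC3 was higher by at least 1.5-fold and 0 members were lower, where 0.64% of all probes measured in both channels were higher and 1.45% lower. With probes measured in at least 1 channel included, the share of all probes that were higher was 3.78%. In MKN45 all 10 were measured in both channels. TNFAIP2 and TNFAIP3 were higher and 0 members were lower, against 0.814% of all such probes higher and 1.62% lower, and 4.81% higher with 1 channel sufficient. All 9 measured members lay above 0 in MKN74, where 48.4% of all probes did, and 7 of 10 in MKN45, where 49.7% did. The contrast itself chose the members, and these shares are given for scale only.

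The median log2 ratio of the members was 0.23 in MKN74 and 0.32 in MKN45, beside 0.0045 and 0.015 over all genes kept. In MKN74 7 members lay above 0 by more than their own error and 2 within it. In MKN45 6 members lay above by more than their error and 4 within it. Of the 9 members measured in both cell lines, 7 lay above 0 in both and 6 exceeded their error in both. Those 6 were NFKB2, RELB, NFKBIA, TNFAIP3, BIRC3 and TNFAIP2. The top 5% of all probes measured in both channels began at a log2 ratio of 0.32 in MKN74 and 0.34 in MKN45, and held 3 and 5 members. The top 10% began at 0.23 and 0.25 and held 4 and 6 members. The error of all such probes lay close to a floor, with a minimum of 0.204 and a median of 0.206 in each line. Passing it was therefore near to passing a fixed ratio. That median lay below the start of the top 10%, so more than 10% of all such probes had a ratio above it. How many of all probes exceeded their own error was not counted, so the counts of members past their error describe the chosen genes only.

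**Figure D2:**
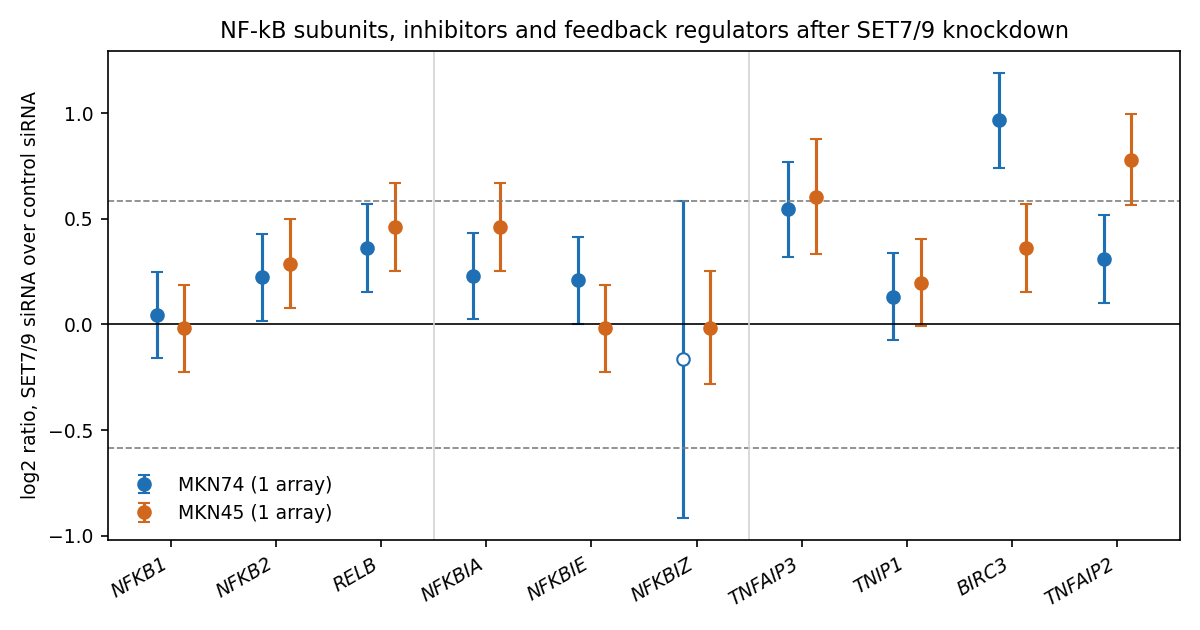
Log2 ratio of SET7/9 siRNA over control siRNA for each member (y axis) in MKN74 (blue) and MKN45 (orange), 1 array each. Bars are the software's error of 1 SD, dashed lines mark 1.5-fold, and the open point (NFKBIZ in MKN74) was not well above background in either channel. BIRC3 in MKN74 and TNFAIP2 and TNFAIP3 in MKN45 lie above the upper line.

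Among the subunits, RELB, the partner of p52 in the non-canonical branch of the pathway, had the largest ratio in both cell lines. Its probe at chr19:45541385-45541444 gave 4446 units in control siRNA cells and 5716 in SET7/9 siRNA cells of MKN74, a log2 ratio of 0.36 ± 0.21. In MKN45 the signals were 3551 and 4884, a ratio of 0.46 ± 0.21. The SET7/9 siRNA channel was the brighter in both lines, by 1.29-fold and 1.38-fold, short of the cutoff.

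NFKB2 encodes p100, which holds dimers back like an IkB protein until it is cut to p52. Its signals were 244 and 284 units in MKN74 and 117 and 142 in MKN45, for control and SET7/9 siRNA in that order. This gave log2 ratios of 0.22 ± 0.21 for MKN74 and 0.29 ± 0.21 for MKN45. The probe was printed 10 times, and all 10 spots lay above 0 in each line, with a range of 0.093 to 0.36 in MKN74 and of 0.19 to 0.38 in MKN45. Its 60 bases spread over 177 bases of the genome at chr10:104161053-104161229, plus strand, and are shown since this is the member whose target is not continuous in the genome.
NFKB2 probe: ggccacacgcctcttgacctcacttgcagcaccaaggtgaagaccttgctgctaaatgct

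NFKB1 encodes p105 and its product p50, the partner of RELA in the classical dimer. Its probe at chr4:103537856-103537915 gave 813 and 839 units in MKN74 and 1221 and 1204 in MKN45, with log2 ratios of 0.05 ± 0.20 and -0.02 ± 0.20. Of its repeated spots 6 of 9 lay above 0 in MKN74 and 4 of 10 in MKN45. The NFKB1 channels thus differed by less than the error in either line, and the sign in MKN45 turned to 0.0038 with another background correction and normalization (normexp and loess).

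Of the inhibitors, NFKBIA had the largest ratio in MKN45, while in MKN74 it and NFKBIE differed by less than their errors and changed order with normexp and loess. NFKBIA encodes IkBα, the main cytoplasmic inhibitor and a classical NF-kB target, and its start region holds the match shown above. The probe at chr14:35870788-35870847 gave 4888 and 5732 units in MKN74 and 3641 and 5016 in MKN45. The log2 ratios were 0.23 ± 0.21 and 0.46 ± 0.21. Its 10 spots ranged between 0.20 and 0.29 in MKN74 and between 0.41 and 0.53 in MKN45, so the spots of the 2 arrays did not overlap. The difference between the cell lines, 0.23 ± 0.29, was nevertheless within the combined software error, and spots of 1 array are not replicate cultures.

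NFKBIE encodes IkBε, an inhibitor that is induced later. Its probe at chr6:44226558-44226617 gave 2113 and 2443 units in MKN74, a log2 ratio of 0.21 ± 0.20. In MKN45 the signals were 1095 and 1081, a ratio of -0.02 ± 0.20. The value in MKN45 had no stable sign, being 0.05 with normexp and loess and 0.0012 without the LOWESS step.

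NFKBIZ encodes IkBζ, an atypical nuclear member that acts with p50 at secondary response genes. Its probe at chr3:101578904-101578963 was not well above background in either channel in MKN74, with 8.56 and 7.64 units, and no ratio is reported there. In MKN45 it gave 32.2 and 31.8 units, a log2 ratio of -0.01 ± 0.27. The channels in MKN45 thus differed by less than the error.

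All the members past the cutoff were in the group listed as feedback regulators. The group name is a label, and a feedback role of TNFAIP2 was not examined. BIRC3 encodes cIAP2, a ubiquitin ligase of the TNF receptor complex and an inhibitor of cell death. At chr11:102208356-102208415 its signal was 145 units in control siRNA cells and 284 in SET7/9 siRNA cells of MKN74, a log2 ratio of 0.97 ± 0.22 or 1.95-fold. That was the 18th largest ratio among the 18582 probes measured in both channels. In MKN45 the signals were 258 and 331, a ratio of 0.36 ± 0.21 or 1.28-fold, and rank 851 of 20281. The ratio in MKN45 was 0.60 ± 0.31 lower than in MKN74, a difference past the combined error. The control siRNA cells of MKN45 were the brighter of the controls. The BIRC3 ratio moved with the processing, being 0.74 in MKN74 and 0.28 in MKN45 with normexp and loess, a smaller gap between the lines. Without the LOWESS step it was 0.89 and 0.30.

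TNFAIP2, a TNF-inducible gene with a part in membrane protrusions, showed the opposite order of the cell lines. Its probe at chr14:103603617-103603676 gave 490 and 608 units in MKN74, a log2 ratio of 0.31 ± 0.21 or 1.24-fold. In MKN45 the signals were 2591 and 4448, a ratio of 0.78 ± 0.22 or 1.72-fold. It ranked 1021 among the probes of MKN74 and 35 among those of MKN45. The difference of 0.47 ± 0.30 passed the combined error, and with 1 array per line the variation between cultures behind it is unknown. TNFAIP2 was the member with the largest ratio in MKN45. It was also the only one of the 8 listed without a kB match in its window, and a link between these facts was not tested.

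TNFAIP3 encodes A20, which edits ubiquitin chains on signalling adaptors and is the best known brake on NF-kB. Its probe at chr6:138203679-138203738 gave 66.4 and 97.0 units in MKN74, a log2 ratio of 0.55 ± 0.23 or 1.46-fold. In MKN45 the signals were 29.4 and 44.7, a ratio of 0.60 ± 0.27 or 1.52-fold. The ratios lay just below and just above the cutoff and differed by 0.06 ± 0.35 between the lines, so that the call in MKN45 alone marks no difference between them. TNFAIP3 was dim, and its ratio moved with the processing, being 0.32 in MKN74 and 0.20 in MKN45 with normexp and loess. Without the LOWESS step it was 0.40 and 0.50, and it then passed 1.5-fold in neither line.

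TNIP1 encodes ABIN1, a ubiquitin-binding partner of A20. At chr5:150409766-150409825 it gave 2751 and 3013 units in MKN74 and 1593 and 1827 in MKN45. The log2 ratios, 0.13 ± 0.20 and 0.20 ± 0.20, were within the error in both lines. For 2 of the 9 members measured in both lines, BIRC3 and TNFAIP2, the ratios differed between lines by more than the combined error. The other 7 differences ran from -0.23 to 0.23. The share of all probes whose ratios differed between the lines by more than their combined error was not counted. The count of 2 therefore describes the chosen genes only, and whether either response is specific to a cell line was not tested.

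**Figure D3:**
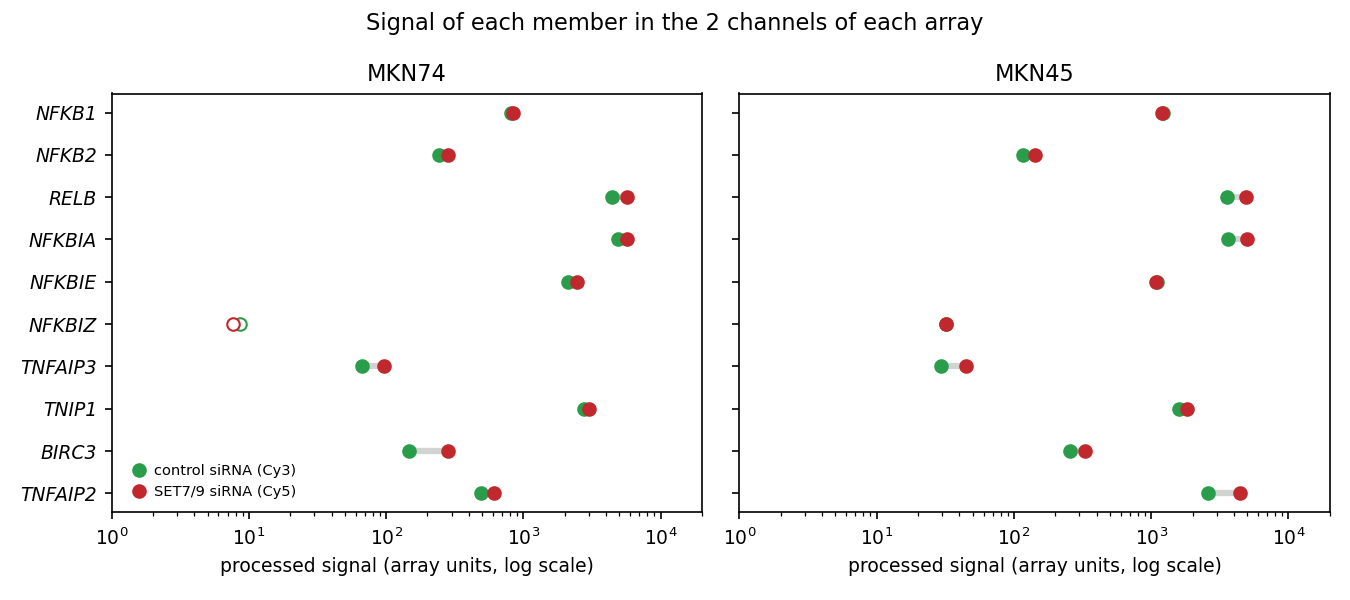
Processed signal in array units (x axis, log scale) of control siRNA (green, Cy3) and SET7/9 siRNA (red, Cy5) for each member in each array. Open points were not well above background, and positions are to be compared between the channels of a member and not between members. The widest gaps are those of BIRC3 in MKN74 (145 to 284) and TNFAIP2 in MKN45 (2591 to 4448).

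**Figure D4:**
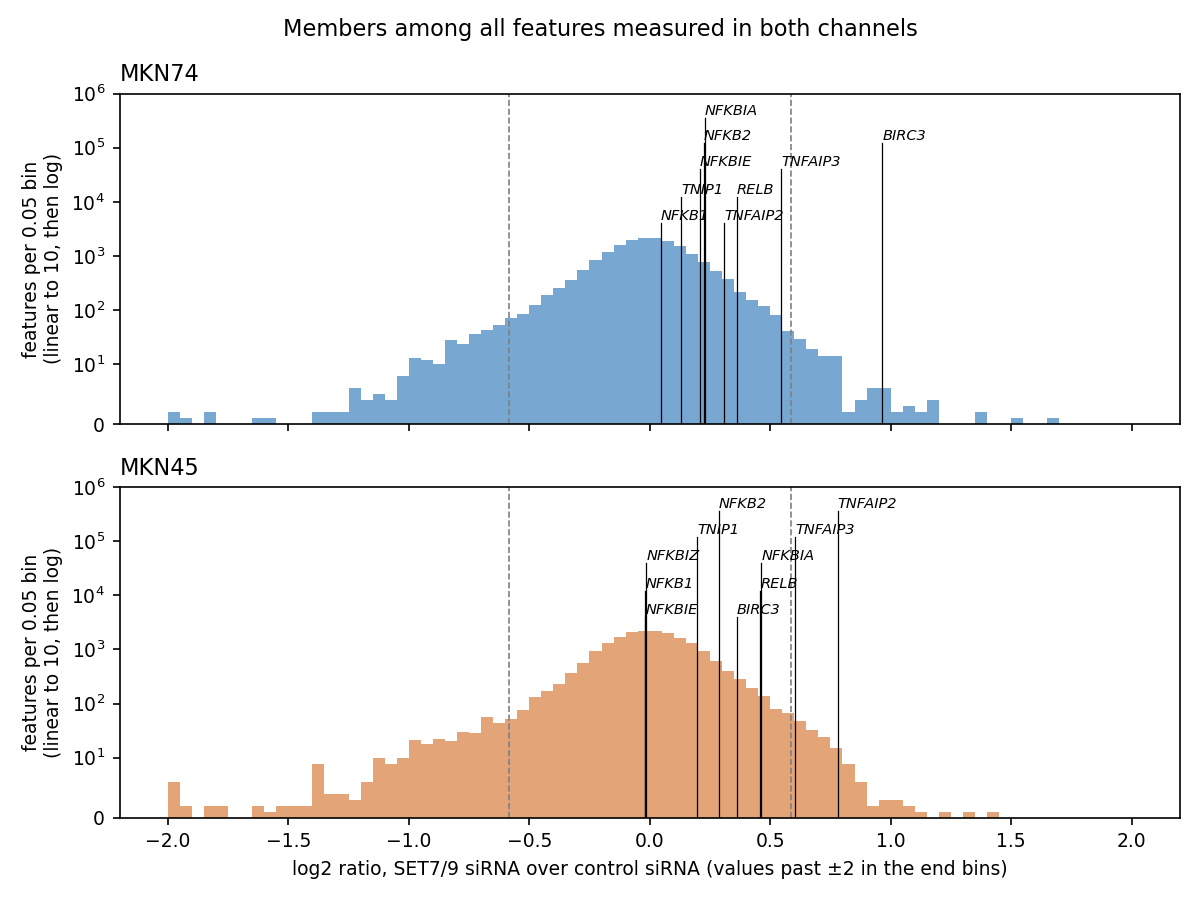
Number of probes measured in both channels (y axis, linear to 10 and log above) by log2 ratio of SET7/9 siRNA over control siRNA (x axis, bins of 0.05) in each cell line, with the measured members marked by lines whose heights only separate the names. Dashed lines mark 1.5-fold. BIRC3 lies in the upper tail in MKN74 and TNFAIP2 in that of MKN45, and NFKB1 lies near the centre in both.

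The control siRNA cells of the 2 lines were then compared, with the Cy3 signal of each array scaled to its 75th percentile. A level 2-fold higher in MKN45 was found for 26.2% of 21613 probes and a level 2-fold lower for 18.9%. Of the members 3 were higher in MKN45 by this measure, 0 were lower and 7 lay within 2-fold. TNFAIP2 was 6.0-fold higher in MKN45 and BIRC3 2.01-fold higher. NFKBIZ was 4.27-fold higher by its signals, but its Cy3 signal in MKN74 was not well above background. Its level was at least 1.17-fold higher against the dimmest measurable signal of MKN74. That bound was taken on another scale, with Aquantile scaling of the processed signals between arrays. With normexp, loess and Aquantile scaling between arrays TNFAIP2 alone passed 2-fold, and it was higher in MKN45. With Aquantile scaling of the processed signals, 2 members were higher, TNFAIP2 and NFKBIZ, and 2 were lower, TNFAIP3 by 1.59 and NFKB2 by 1.08 on the log2 scale.

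NFKB1 was 1.71-fold higher in MKN45. TNFAIP3 was 1.99-fold lower in MKN45, NFKB2 1.84-fold, NFKBIE 1.70-fold and TNIP1 1.52-fold lower. NFKBIA and RELB, at 0.846 and 0.907 of the MKN74 level, were nearest to equal, and the small difference of RELB changed sign with both Aquantile scalings. These levels also chose the members. With 1 array per line they carry no error between cultures, and in RNA of whole cultures fewer expressing cells and less RNA per cell cannot be told apart.

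The other genes of the pathway were read from a list of 77 genes, each by its brightest measured probe. In MKN74 66 were measured, 61 of them in both channels, and of these 4 were higher by 1.5-fold and 1 was lower. In MKN45 68 were measured, 65 in both channels, and of these 4 were higher and 0 lower. With genes measured in 1 channel included, 6 were higher in each line. Of all probes measured in both channels, 0.64% in MKN74 and 0.814% in MKN45 were higher, and 1.45% and 1.62% lower. With 1 channel sufficient, 3.78% and 4.81% were higher. The list was written with earlier results of these data known, and these shares are given for scale only. The median log2 ratio over the list was 0.02 in MKN74 and 0.05 in MKN45. The roles differed within the list. The other target genes had a median of 0.21 in each line. With both channels required it was 0.10 in MKN74 and 0.21 in MKN45. The 2 remaining subunits, REL and RELA, had medians of 0.19 in MKN74 and 0.26 in MKN45.

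Of the remaining subunits, REL gave 0.28 ± 0.21 in MKN74 and 0.40 ± 0.21 in MKN45. RELA, the main activating subunit, gave 0.10 ± 0.20 and 0.12 ± 0.20 at its brightest probe, and -0.14 ± 0.20 and -0.18 ± 0.20 at its second. The probes of RELA differed in sign and all 4 values were within the error. The other IkB family genes, NFKBIB, NFKBID and BCL3, lay between -0.03 and 0.14 in MKN74 and between -0.25 and 0.16 in MKN45.

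None of the 7 kinases, which carry the signal to IkB, passed the cutoff in either line. Their range was -0.18 to 0.11 in MKN74 and -0.16 to 0.26 in MKN45, with medians of -0.09 and -0.03. The 3 genes of the linear ubiquitin ligase build the chains that A20 and ABIN1 bind. At their brightest probes they lay between -0.29 and -0.12 in MKN74 and between -0.23 and 0.05 in MKN45. Further probes of these genes reached -0.40 ± 0.21 in MKN74 (RBCK1) and -0.30 ± 0.21 in MKN45 (SHARPIN), short of the cutoff. The 7 other brakes and ubiquitin editors had medians of -0.05 and 0.0012, and none passed the cutoff. They ranged from -0.46, for TNIP3 in MKN74, to 0.22, for ZC3H12A in MKN45. Among the 15 adaptors measured, IRAK2, a kinase-like adaptor of interleukin-1 and Toll-like receptors, was the only one past the cutoff, with 0.61 ± 0.23 in MKN74 and 0.36 ± 0.21 in MKN45. With normexp and loess it gave 0.43 in MKN74 and did not pass.

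The 5 receptors measured in MKN74 all lay below 0. TLR3, a sensor of double-stranded RNA, was lower there with signals of 119 and 74.4 units and a log2 ratio of -0.68 ± 0.22, and gave 0.10 ± 0.24 in MKN45. With normexp and loess its ratio in MKN74 was -0.38, short of the cutoff. Of the 8 receptors measured in MKN45, 4 lay above 0 and 4 below, down to -0.50 for IL1R1.

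Among the ligands, IL1A was higher in MKN74, with 44.3 and 81.0 units and a log2 ratio of 0.88 ± 0.24, and was not well above background in MKN45. LTB, a lymphotoxin subunit that signals to the non-canonical branch, was higher in MKN45, with 353 and 695 units and a ratio of 0.98 ± 0.22, and was not well above background in MKN74. TNF was well above background in the SET7/9 siRNA channel only, in both lines.

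Of the 25 other target genes, 21 were measured in MKN74 and 15 of them lay above 0, and in MKN45 18 of 22 did. These counts include genes measured in the knockdown channel alone, and such a filter favours ratios above 0. With both channels required, 11 of 17 lay above 0 in MKN74 and 16 of 20 in MKN45. Among those measured in both channels 2 were higher by 1.5-fold in MKN74 and 3 in MKN45, and 0 were lower. The shares of all such probes that were higher were 0.64% and 0.814%. The lowest in both lines was CXCL5, with -0.26 ± 0.21 and -0.18 ± 0.22. CXCL2 gave 0.77 ± 0.22 in MKN74 and 0.73 ± 0.22 in MKN45 at its brightest probe, and 0.72 ± 0.22 and 0.56 ± 0.21 at its second. It was the only gene of the list measured in both channels and past 1.5-fold in both lines. IL8 gave 1.40 ± 0.26 in MKN74, from 41.1 to 108 units, and was measured in 1 channel in MKN45. CCL20 gave 0.62 ± 0.21 in MKN45, and in MKN74 it was not well above background. ICAM1, an adhesion molecule gene, gave 0.68 ± 0.29 in MKN45 at signals of 25.3 and 39.9 units, and -0.06 ± 0.20 in MKN74 where it was bright. With normexp and loess 2 genes of the list passed 1.5-fold upward in each line. These were CXCL2 and IL8 in MKN74, with 0.62 and 0.77, and LTB and CXCL1 in MKN45, with 0.82 and 0.59. IL1A then gave 0.45 in MKN74, and in MKN45 CXCL2 gave 0.53, CCL20 0.52 and ICAM1 0.18, all short of the cutoff.

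**Figure D5:**
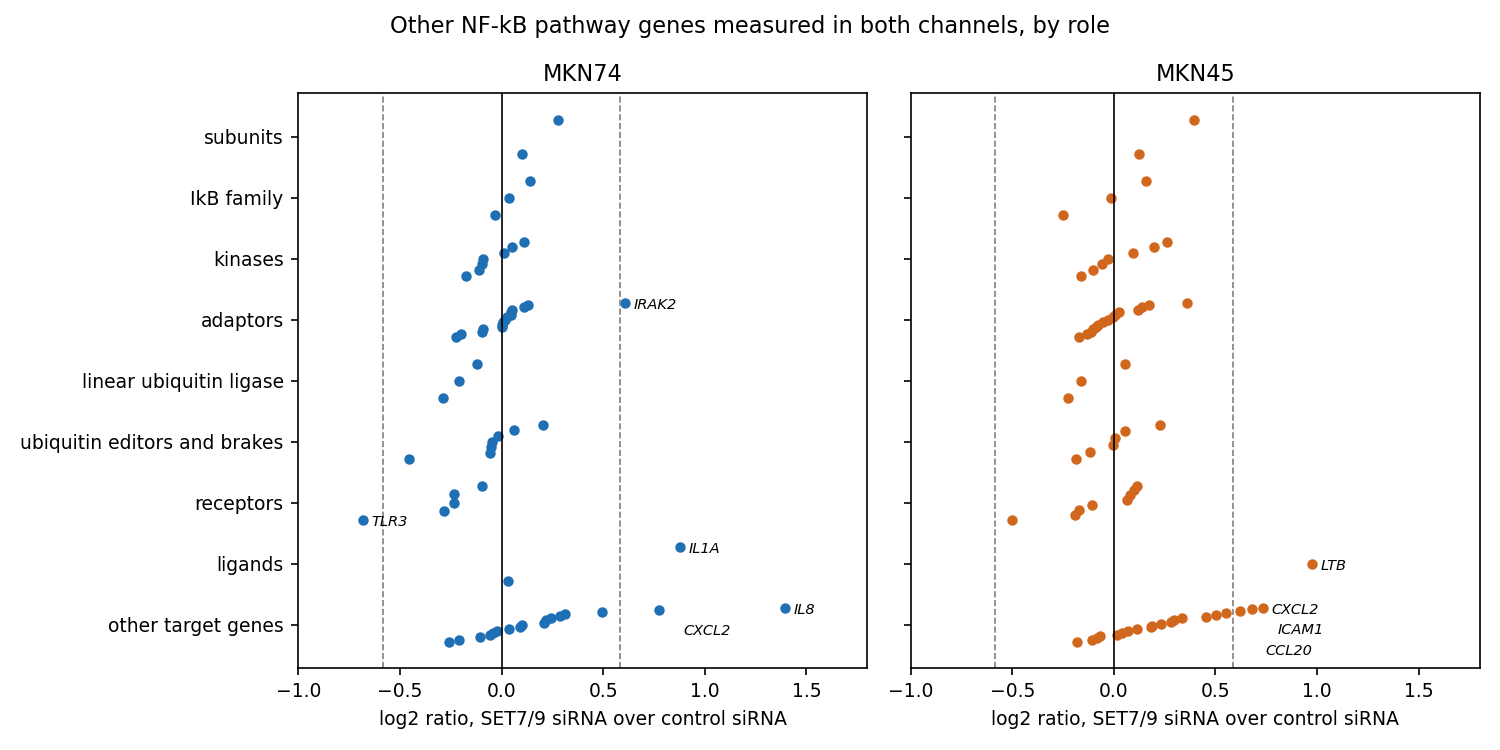
Log2 ratio of SET7/9 siRNA over control siRNA (x axis) for the other NF-kB pathway genes measured in both channels, 1 point a gene, by role (y axis) in MKN74 and MKN45. Dashed lines mark 1.5-fold and the genes past it are named. Kinases, ubiquitin ligase and brakes stay between the lines, and the points past the upper line are an adaptor, ligands and other target genes.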

How the data were processed

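Total RNA of MKN74 and MKN45 cells was hybridised to 2 Agilent two-colour arrays (1 per cell line). The authors deposited scanner output of Agilent Feature Extraction 10.7.3.1, in which each channel has a raw intensity and a processed intensity, corrected for background and dye, and each spot a log10 ratio (Cy5 to Cy3) and an error of it. A table of log2 ratios was deposited too, and its values lay within 0.01 of the scanner ratios for 99.6% and 99.4% of probes. Dye normalization included LOWESS, which centres each array, so that a change shared by most genes would not be seen.

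From these files the log10 ratios were converted to log2, 549 and 534 outlier spots were left out, and spots of a probe were averaged. A probe was kept if 50% or more of its spots exceeded background well in either channel, which held for 20674 and 22830 probes. Cy3 levels were scaled to each array's 75th percentile. Alternatives used normexp (offset 50), loess and Aquantile in limma 3.58.1 (R 4.3.3). Other steps used Python 3.11.15 and were tested on simulated data. The number of arrays limits the precision, and no test was applied.

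The text names all 10 members, the targeted gene, pathway genes past 1.5-fold in either line with both channels well above background, and the extremes of a role where its range is given. CXCL1, CD14, PTPRC, CDH5, LUM and genes of small roles were named after their values were seen. The members and the gene lists were chosen with earlier results of these data known. RefSeq symbols (GRCh38.p14) matched the accession of 9 of the 10 member probes, and NFKB2 keeps the array's name.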

Additional observations from a re-analysis of the deposited data

How the results depend on the processing

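No member was lower by the cutoff in either cell line under any of the 10 alternatives, and the members' medians stayed between 0.22 and 0.24 in MKN74 and between 0.23 and 0.33 in MKN45. At 2-fold the count of higher members was 0 in either line, and at 1.2-fold 4 for MKN74 and 6 for MKN45. With normexp and loess 1 member was higher in MKN45, as was 1 with signals that had no LOWESS step and were centred on the median, an alternative chosen after seeing the data. With at least 1 channel measured, 6 pathway genes were higher in each line. The count in MKN74 was 2 with normexp and loess, 2 at 2-fold and 12 at 1.2-fold, and in MKN45 2, 1 and 14, while with no filter it was 9 and 8. Against 1 lower in MKN74 and 0 in MKN45, pathway genes lower in MKN74 numbered 0 with normexp and loess, 2 with no filter, 0 at 2-fold and 4 at 1.2-fold, and in MKN45 2 with no filter and 1 at 1.2-fold. The control level was higher in MKN45 for 1 member with normexp, loess and Aquantile, and lower for 4 at a cutoff of 1.5-fold. With Aquantile scaling of the processed signals, added after seeing the data, it was higher for 2 and lower for 2. Except for changes of cutoff and filter, the cause was not tested. Of 152 ratios of single members under the alternatives, 143 moved by less than the spot SD and 9 by more. All 9 came from normexp and loess or from leaving out the LOWESS step. With 1 probe per member, the filter, deposited table, outlier and averaging alternatives return nearly the same value by construction. The 143 therefore say little about stability. Of the 152 ratios 3 changed sign, all among values within their error. Leaving out a replicate was not possible with 1 array per cell line. No paired analysis was possible because the labels give no replicate numbers shared across groups. Each ratio already sets SET7/9 siRNA against control siRNA within an array, and the arrays were not fitted together as replicates because these ratios chose the members. Dim probes (TNFAIP3, NFKBIZ) limit what the signal over background can show.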
